A study of Canis lupus familiaris with 6 samples.

Results

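The genes described here encode the proteins of the cytosolic ribosome. They were chosen by symbol alone: RPL or RPS followed by a number, with the usual letter endings, plus RPSA, RPLP0, RPLP1 and RPLP2, on probe sets annotated to a single gene, without the S6 kinase genes. The rule found 58 genes on 119 of the 42860 probe sets of an Affymetrix canine array. After 4 probe sets in ambiguous name pairs were left out, 57 genes had a usable probe set, and 55 of them lay above the filter on low values among 10530 genes in all. RPL10L and RPL37A were below the filter, and RPL22 had probe sets only in the pairs left out. A further 75 probe sets name a ribosomal protein gene among several genes and were not counted. RPL11, RPS6, RPSA, RPS2 and RPL3, among others, were not analysed here.

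All 6 RNA samples are from the lower jaw of beagles, 9 years old per the labels. Premolars had been extracted 3 months earlier, and holes 4.5 mm wide and 8 mm long were then drilled in the healed bone. The control groups had no implant, and in the other groups the hole received beta-TCP, a resorbable calcium phosphate ceramic used as a bone substitute. Cylinders of tissue were taken on days 4, 7 and 14 after this, and each of the 6 combinations of treatment and day is 1 array. How many dogs were used, and which cylinders came from the same dog, is not given in the sources used here. No difference on a single day therefore has a replicate check, and none carries a test.

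The cytosolic ribosome is built from a small subunit, which reads the mRNA, and a large subunit, which forms the peptide bond and holds the tunnel through which the new chain leaves. Each subunit is a core of ribosomal RNA dressed with many small basic proteins, needed in near equal amounts since a ribosome holds a single copy of most of them. Their mRNAs are among the most abundant of a growing cell. They start with a pyrimidine tract that lets mTOR signalling adjust their translation, and osteoblasts that lay down collagen matrix have a high demand for ribosomes.

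Levels are given as log2(value / array median + 1), so that a level of 8 lies far above the middle of the array and the filter lay at 0.70. The deposited day 14 values are on another scale than those of days 4 and 7, and dividing by the array median removes a difference of factor but no other difference in their making. Any difference between day 14 and the earlier days cannot be told apart from that change of scale. In this bulk tissue, fewer cells of a type and less RNA per cell cannot be told apart either. Markers of osteoblast and bone were all above the filter (11 of 11 measured). They summed to 1840, 2470 and 2727 times the array median on the control arrays of days 4, 7 and 14, and to 2032, 2613 and 4691 on the beta-TCP arrays. COL1A1 and COL1A2 made most of the day 14 sums, at 1270 and 1230 in control and 2521 and 1925 with beta-TCP. IBSP, SPP1, DMP1 and BGLAP were lower on day 14 than on day 7 in both treatments, while COL1A1, COL1A2 and PHEX were higher in both. The direction of the remaining markers differed by treatment. Osteoclast markers (7 measured, 1 below the filter) summed to 589, 2634 and 903 on the control arrays and to 699, 1318 and 1790 on the beta-TCP arrays. Endothelial markers (9 measured, all above the filter) summed to 79.2, 378 and 269 on the control arrays and to 167, 272 and 351 on the beta-TCP arrays. Neutrophil markers (7 measured, 2 of them below the filter) summed to 1721, 1446 and 300.1 on the control arrays, and to 932, 970 and 105 on the beta-TCP arrays. Markers of stratified epithelium (10 measured, 2 below the filter) summed to 284 on the day 4 control array and to 19.2 to 70.4 on the other 5 arrays. Skeletal muscle markers stayed between 9.27 and 14.7, with 7 of 11 below the filter. The part of these cell types in the differences below was not tested.

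Probe sets of the ribosomal protein genes were among the brightest of every array. The median level of the 55 genes was 7.90 on the day 4 control array, 8.30 on the day 4 beta-TCP array, 8.65 and 8.56 on the day 7 control and beta-TCP arrays, and 9.14 and 8.76 on those of day 14. On the control arrays the median thus stood higher at each later day, and beta-TCP was above control on day 4 and below it on day 14. Between 8 and 23 of the 100 brightest probe sets of an array belonged to these genes. Only 7 of the 55 had a mean level under 6: RPL17, RPL26, RPL26L1, RPL3L, RPL7L1, RPS10 and RPS4X. Brightness depends on the probes as well as on the transcript, so these levels do not order the genes by amount. RPL32 was the brightest of all probe sets on the day 14 beta-TCP array, at a deposited intensity of 17330, beside 13385 on the day 14 control array.

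**Figure D1:**
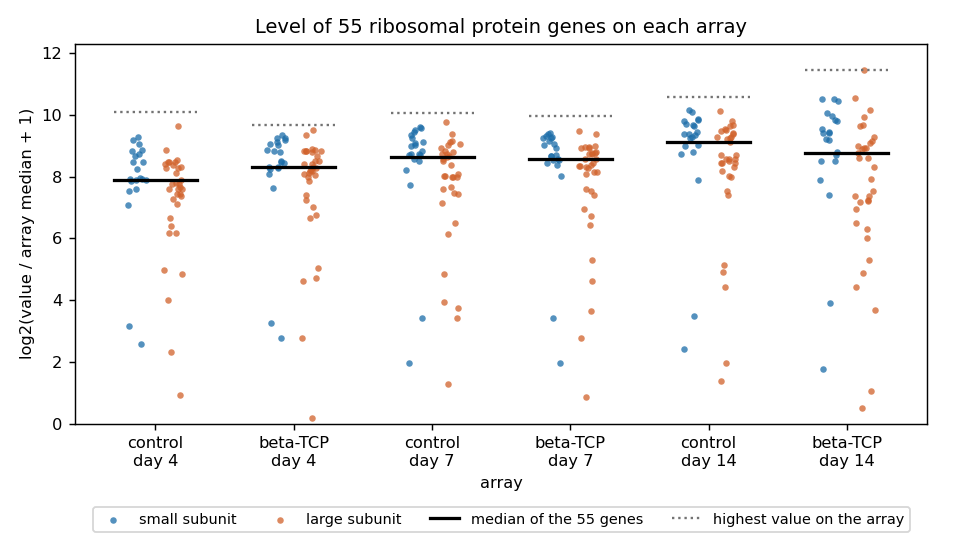
Level of the 55 ribosomal protein genes, as log2(value / array median + 1), on the 6 arrays, with 1 point a gene, blue for the small subunit and orange for the large. The black bars mark the median of the 55 genes, which stands at 7.90, 8.65 and 9.14 on the control arrays, and the dotted bars the highest value on the array, which RPL32 reaches on the day 14 beta-TCP array.

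On day 4 the ribosomal protein genes stood slightly higher with beta-TCP, nearly all of them together and none of them by much. The median log2 difference of beta-TCP minus control was 0.39, against 0.17 over all 10530 genes, and the values ran from -0.77 to 0.85. The difference was above 0 for 51 of the 55 genes, where 62.7% of all genes were, and 47 of the 55 lay above the all-gene median, as 50% of all genes do by definition. No member reached 2-fold in either direction. Of all genes, 4.52% were 2-fold or more above control and 3.10% as far below. The subunits had medians of 0.37 over the 21 small subunit genes and 0.46 over the 34 large subunit genes. Among the 691 other genes with a mean level of at least 6, the median was 0.32, and among the 48 members of that brightness it was 0.45. With arrays scaled on their 90th percentile the median was 0.13, beside -0.01 for all genes.

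The highest differences of day 4 were those of RPL36 (0.85), RPLP0 (0.85), RPL7A (0.74), RPS15 (0.72) and RPS16 (0.69). RPS15, which sits in the head of the small subunit near the decoding site, read 7.54 on the control and 8.26 on the beta-TCP array of day 4, 8.56 and 8.54 on day 7, and 9.34 and 8.79 on day 14. RPS16 read 7.61 and 8.30 on day 4, 8.22 and 8.44 on day 7, and 8.73 and 7.90 on day 14. In both genes beta-TCP was the higher on day 4 and the lower on day 14. The lowest differences were those of RPL3L (-0.77), RPL32 (-0.14), RPL26 (-0.10) and RPS29 (-0.01), with RPS26 next at 0.06. By their brightest probe sets, these 4 were the only members below 0 on day 4. The other probe set of RPL32 was at 0.44, and those of RPS29 reached up to 0.42. Of the 26 genes with several probe sets, 7 had both signs on day 4.

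On day 7 the median was near 0. It was -0.02, against -0.08 over all genes, and 0.21 after quantile normalization, with 24 members above 0, where 41.8% of all genes were. Again no member reached 2-fold, which 2.96% of all genes did upward and 3.44% downward. The highest values were those of RPL26 (0.66), RPL7A (0.51), RPLP1 (0.47), RPL17 (0.46) and RPL4 (0.46). The lowest were those of RPL36 (-0.72), RPL7L1 (-0.66), RPL3L (-0.40), RPS27A (-0.31) and RPL32 (-0.29). These are readings of the brightest probe sets, and the other probe sets of RPL7L1 and RPL32 were at 0.19 and 0.12. RPL36 thus lay at the top of the list on day 4 and at the bottom on day 7, while RPL7A stayed near the top on both days.

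On day 14 the members differed from each other far more than on the earlier days. The median was -0.38, against -0.23 over all genes, but the standard deviation over the 55 genes was 0.76, where it had been 0.27 on day 4 and 0.26 on day 7. All genes also spread further downward. The share at least 2-fold lower was 15.4%, beside 3.10% on day 4 and 3.44% on day 7. The share at least 2-fold higher was 3.47%, beside 4.52% and 2.96%. Above 0 were 18 members, where 36.8% of all genes were. Read from its brightest probe set, a single gene, RPL32, was at least 2-fold higher with beta-TCP, where 3.47% of all genes were. At least 2-fold lower were 9 members, or 16.4%, beside 15.4% of all genes, so the share is close to that of all genes. All 9 encode large subunit proteins: RPLP0 (-2.43), RPL22L1 (-2.09), RPL7A (-2.00), RPL36 (-1.51), RPL17 (-1.49), RPL5 (-1.22), RPL10 (-1.21), RPL4 (-1.14) and RPLP1 (-1.01). The small subunit genes had a median of -0.03 (-0.97 to 0.68) and the large subunit genes one of -0.60 (-2.43 to 1.32). The split of 1 higher and 9 lower becomes 5 and 5 when arrays are scaled on their 90th percentile, and the median then becomes 0.05, beside 0.10 for all genes. It becomes 0 and 5 after quantile normalization, where the median of all genes is 0.00. The share of all genes at 2-fold was not counted under either setting. The small subunit median was above the large in all 13 alternatives that gave both, by 0.23 to 0.76, beside 0.58 in the main setting. This difference was chosen after its values were seen and rests on 1 array of each treatment.

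**Figure D2:**
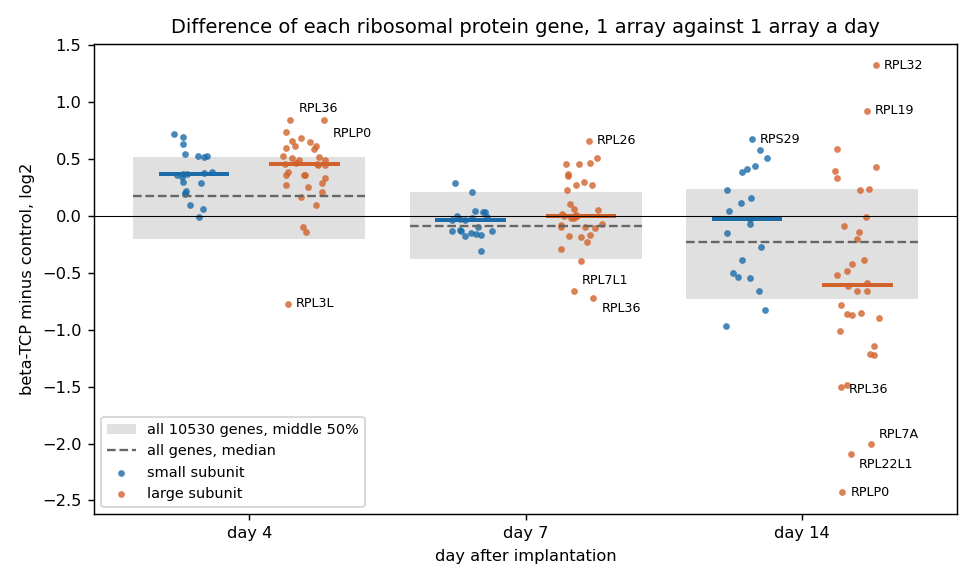
Beta-TCP minus control in log2 for each of the 55 genes on days 4, 7 and 14, by subunit, with a coloured bar at the median of each subunit, over the middle 50% and the median of all 10530 genes in grey. The points lie mostly above the grey line on day 4, around it on day 7, and spread on day 14 from RPLP0 at -2.43 to RPL32 at 1.32.

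The stalk of the large subunit, which draws the elongation factors to the ribosome, is formed by RPLP0, RPLP1 and RPLP2 on a base that includes RPL12. RPLP0 read 7.45 on the control and 8.29 on the beta-TCP array of day 4, 8.02 and 8.30 on day 7, and 8.44 and 6.01 on day 14. Its deposited day 14 intensities were 4149 for control and 392.9 for beta-TCP. The day 14 beta-TCP array was the lowest of the 6 for this gene, and the other 5 lay within 1 unit of each other. RPLP1 read 6.19 and 6.65 on day 4, 6.49 and 6.96 on day 7, and 7.53 and 6.51 on day 14. RPLP2 read 7.38 and 7.87, then 8.08 and 8.09, then 8.57 and 7.91. RPL12 read 6.66 and 7.26, then 7.14 and 7.41, then 8.00 and 7.22. All 4 stalk genes thus had beta-TCP above control on days 4 and 7 and below it on day 14, with differences of 0.46 to 0.85 on day 4 and -2.43 to -0.66 on day 14. Over all members, 20 of 55 had that sequence of signs, where 20.9% of all genes did.

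RPL4, RPL8 and RPL10 lie in the core of the large subunit around the peptidyl transferase centre. RPL4 read 7.77 on the control and 8.43 on the beta-TCP array of day 4, 7.99 and 8.45 on day 7, and 8.50 and 7.36 on day 14. RPL10, which joins the subunit late in its assembly, read 7.60 and 8.09, then 7.99 and 8.36, then 8.44 and 7.23. Both had their lowest reading of the 6 arrays on day 14 with beta-TCP. RPL8 read 8.38 and 8.91, then 8.94 and 8.94, then 9.41 and 8.98, with a smaller gap on day 14 (-0.42).

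RPL5 carries the 5S ribosomal RNA into the subunit together with RPL11, and the free pair is known to bind MDM2. It read 7.61 on the control and 8.20 on the beta-TCP array of day 4, 8.00 and 8.36 on day 7, and 8.58 and 7.36 on day 14. Its course was close to those of RPL4 and RPL10. RPL7A read 7.45 and 8.19 on day 4, 7.66 and 8.16 on day 7, and 8.30 and 6.30 on day 14. RPL36 read 6.16 and 7.01, then 7.45 and 6.73, then 8.45 and 6.94, so that its control readings were higher at each later day while the beta-TCP readings were not.

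**Figure D3:**
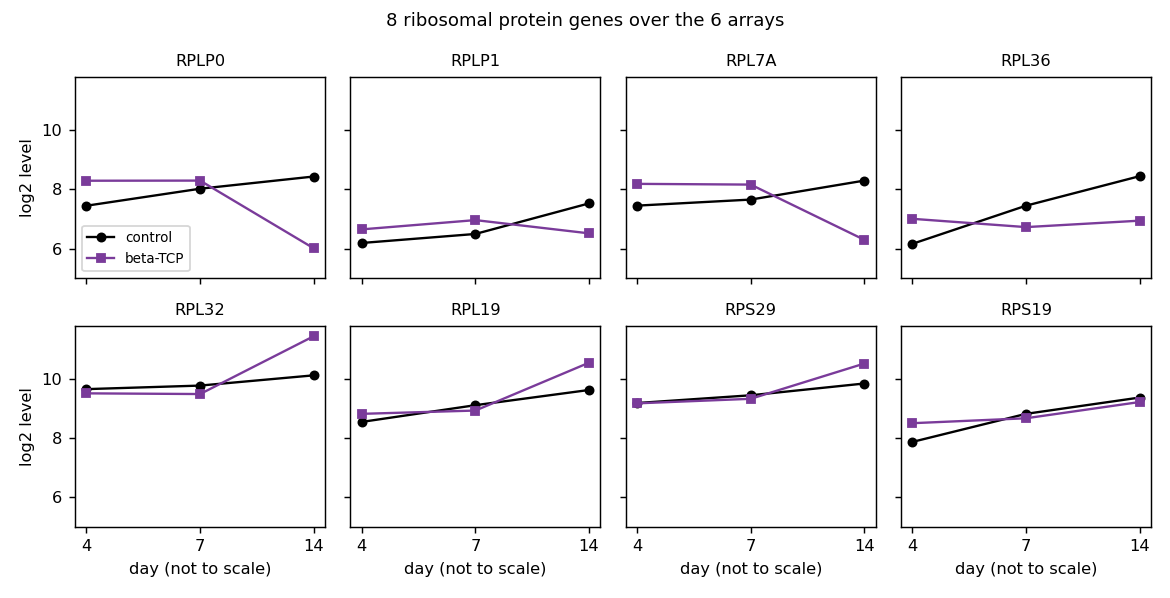
Log2 level of 8 ribosomal protein genes on the control (black circles) and beta-TCP (purple squares) arrays of days 4, 7 and 14, 1 array a point, with lines only to guide the eye. RPLP0, RPLP1, RPL7A and RPL36 lie lower with beta-TCP on day 14, RPL32, RPL19 and RPS29 lie higher, and RPS19 is nearly level at 9.37 and 9.22.

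Around the exit tunnel, RPL17, RPL26 and RPL35 were measured. RPL17 read 4.96 on the control and 5.06 on the beta-TCP array of day 4, 4.85 and 5.31 on day 7, and 5.15 and 3.67 on day 14. RPL26 read 4.83 and 4.73, then 3.95 and 4.61, then 4.90 and 4.41. RPL35 read 8.49 and 8.85, then 8.85 and 8.75, then 9.38 and 8.76. By their brightest probe sets the 3 genes share a lower beta-TCP reading on day 14 but differ in their order on days 4 and 7. The other probe set of RPL35 was at 0.33 on day 14, and both other probe sets of RPL17 were below 0 on day 4.

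The members with the highest day 14 differences, each read from its brightest probe set, were RPL32 (1.32), RPL19 (0.92), RPS29 (0.68), RPL10A (0.59) and RPS26 (0.58). The other probe sets of RPS29 and RPS26 were all below 0, and with the mean of the probe sets these genes were at -0.50 and -0.54. RPL32 and RPL19 each have another probe set, at 0.26 and 0.29. RPL32 read 9.66 on the control and 9.51 on the beta-TCP array of day 4, 9.78 and 9.49 on day 7, and 10.12 and 11.45 on day 14. RPL19, a protein that bridges both subunits, read 8.55 and 8.82, then 9.11 and 8.93, then 9.63 and 10.55. For RPL19 the deposited day 14 intensities were 9489 for control and 9306 for beta-TCP, so its difference was there only once the arrays were scaled. With arrays scaled on their 90th percentile it was 1.36. Over the planned settings other than the deposited values, its lowest value was 0.35. With the values as deposited and a pseudocount of 16, the difference of RPL19 became -0.03, that of RPS29 -0.28, that of RPL10A -0.36 and that of RPS26 -0.37, while that of RPL32 was 0.37. RPS29 read 9.19 and 9.18, then 9.45 and 9.33, then 9.85 and 10.52. RPL10A read 8.48 and 8.84, then 9.14 and 8.97, then 9.55 and 10.15. Under the same setting RPLP0 was at -3.35, lower still than after the division.

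Among the small subunit genes, RPS3 lies at the channel through which the mRNA enters. It read 7.96 on the control and 8.48 on the beta-TCP array of day 4, 8.72 and 8.69 on day 7, and 9.03 and 8.49 on day 14. RPS27A, made as a fusion with ubiquitin, read 9.04 and 9.27, then 9.61 and 9.29, then 10.08 and 10.06. RPS20 read 8.86 and 9.24, then 9.52 and 9.39, then 10.15 and 10.53. By their brightest probe sets, neither RPS27A nor RPS20 had a day 14 gap between treatments as wide as 0.50. The other probe sets of RPS20 reached down to -2.05.

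In humans, inherited loss of 1 copy of any of several of these genes causes Diamond-Blackfan anaemia, a failure of red cell formation that can come with skeletal malformations. Of 9 such genes listed, 6 were measured above the filter. RPS19, the gene most often affected, read 7.87 on the control and 8.50 on the beta-TCP array of day 4, 8.82 and 8.67 on day 7, and 9.37 and 9.22 on day 14. RPS7 read 8.48 and 8.85, then 9.03 and 9.06, then 9.67 and 8.70, with the lowest day 14 difference of the small subunit (-0.97). RPS26 read 9.28 and 9.34, then 9.58 and 9.41, then 9.87 and 10.46. By their brightest probe sets these 3 genes differed in their day 14 order, but the direction turns with the probe set for 2 of them. The other probe set of RPS19, close to the filter, was at 0.79, and both other probe sets of RPS26 were below 0. RPL35A read 7.67 and 8.18, then 8.37 and 8.37, then 8.69 and 8.31. RPS10 read between 3.17 and 3.90 on all 6 arrays, the narrowest range of any member (0.73). RPL5 is given above.

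Paralogues are second genes for a ribosomal protein, often used in particular tissues, and 6 were above the filter. RPL3L, the striated muscle counterpart of RPL3, read 0.94 on the control and 0.17 on the beta-TCP array of day 4, 1.27 and 0.88 on day 7, and 1.37 and 0.51 on day 14. It was lower with beta-TCP on all 3 days, at levels close to the filter. RPL22L1, the counterpart of RPL22, read 6.42 and 6.75, then 6.15 and 6.45, then 7.40 and 5.31. RPL7L1 read 2.31 and 2.76, then 3.43 and 2.77, then 1.96 and 1.06. These last 2 had their lowest reading of the 6 arrays on day 14 with beta-TCP. RPL26L1 read 4.01 and 4.62, then 3.76 and 3.65, then 4.44 and 4.87. RPL36AL read 7.11 and 7.40, then 7.61 and 7.61, then 8.19 and 7.53. RPS27L, whose gene responds to p53, read 7.94 and 8.30, then 8.70 and 8.57, then 9.38 and 9.43. RPL10L, a gene used in the testis, stayed between 0.13 and 0.98, below the filter on average.

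Without beta-TCP, the ribosomal protein genes stood higher on each later day. The median log2 difference between the control arrays was 0.52 from day 4 to day 7, beside 0.27 over all genes, with 50 of 55 genes above 0, where 64.8% of all genes were. At least 2-fold higher over that span were 3 members, where 15.9% of all genes were, and none was as far below (4.73%). From day 7 to day 14 the median was 0.51, beside -0.02, with 54 of 55 above 0, where 48.7% of all genes were. Over this second span 2 members were at least 2-fold higher (4.19% of all genes) and 1, RPL7L1, at least 2-fold lower (6.29%). From day 4 to day 14 it was 1.02, against 0.27, with 53 of 55 genes above 0, where 63.3% of all genes were. At least 2-fold higher on day 14 than on day 4 were 29 of the 55 genes, or 52.7%, beside 18.6% of all genes, and none was at least 2-fold lower, where 7.81% were. The order day 4, day 7, day 14 from low to high held for 49 of 55 genes, beside 29.1% of all genes. The exceptions were RPL17, RPL22L1, RPL26, RPL26L1, RPL7L1 and RPS4X. Of these, 5 have a mean level under 6. Among the 48 brighter members the median difference from day 4 to day 14 was 1.06, and among the 691 other genes of that brightness it was 0.80. The widest difference was that of RPL36, from 6.16 to 8.45, and RPS15 followed, from 7.54 to 9.34.

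The size of these differences depends on the scaling. From day 4 to day 7, the span within 1 deposited scale, the median was 0.09 with arrays scaled on their 90th percentile and 0.26 after quantile normalization. From day 4 to day 14 it was 0.52 after quantile normalization and 0.62 with arrays scaled on their 90th percentile. The 12 members that stayed under 25% of the highest value of every array had a median of 0.43. Neutrophil and epithelial marker sums were lowest on the day 14 control array among the control arrays, while osteoclast and endothelial sums were highest on day 7. The osteoblast sum was highest on day 14, but it rested mostly on COL1A1 and COL1A2. IBSP, SPP1, DMP1 and BGLAP of that list were lower on the control array of day 14 than on that of day 7. The part of these cell types in the difference was not tested.

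Between the beta-TCP arrays the medians were smaller with arrays divided by their median. The median was 0.15 from day 4 to day 7, with 45 of 55 genes above 0 (55.1% of all genes). From day 7 to day 14 it was 0.17, with 31 above 0 (41.6% of all genes), 10 at least 2-fold higher (4.82%) and 7 at least 2-fold lower (16.6%). Over the whole span it was 0.25, beside -0.09 over all genes, with 36 above 0 (46.3%). From day 4 to day 14, 12 members were at least 2-fold higher (9.72% of all genes) and 7 at least 2-fold lower (18.0%). RPL32 (1.93) and RPL19 (1.73) were among the highest, and RPLP0 (-2.29), RPL7A (-1.89), RPL7L1 (-1.70), RPL22L1 (-1.44), RPL17 (-1.39), RPL4 (-1.06) and RPS4X (-1.04) were the 7 lower. After quantile normalization the median from day 4 to day 14 was -0.08. With arrays scaled on their 90th percentile it was 0.53, beside 0.62 in control, and from day 7 to day 14 it was 0.57 in both treatments. The control and the beta-TCP comparisons of day 14 use the same arrays, so the small beta-TCP median and the negative beta-TCP minus control median of day 14 are not separate observations.

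The additive fit with limma (day and treatment, all 6 arrays, 2 residual degrees of freedom) asked whether any gene had the same shift with beta-TCP over the 3 days. None of the 10530 genes passed an adjusted p of 0.05 (0%), and 513 (4.87%) had an unadjusted p under 0.05. Among the 55 members none passed, and 1 had an unadjusted p under 0.05. That gene was RPL3L, with a mean of 1.19 in control and 0.52 with beta-TCP, a difference of -0.68 ± 0.31 (SE) and a limma adjusted p of 0.9998. Next by p came RPL36 (-0.46 ± 0.42), RPL22L1 (-0.49 ± 0.46), RPL7L1 (-0.37 ± 0.35) and RPL19 (0.34 ± 0.33). Over the members the average effects ran from -0.68 to 0.34 with a median of 0.03, and their median SE was 0.32. Opposite differences on days 4 and 14 cancel in such an average.

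For days, limma's F test passed 312 genes (2.96%) and no member. For day 14 minus day 4, 199 genes were higher (1.89%) and 319 lower (3.03%), and again no member passed. The lowest adjusted p of a member in limma was 0.0707, for RPL19, with a difference of 1.41 ± 0.40 (SE). RPS27L followed with 1.28 ± 0.38, RPS20 with 1.29 ± 0.38 and RPL6 with 1.25 ± 0.38. At an unadjusted p under 0.05, 20 of 55 members were higher on day 14, or 36.4%, beside 12.2% of all genes. Counting both directions, 21 members were under that p, beside 22.4% of all genes. For day 7 minus day 4, limma passed 31 genes higher (0.294%) and 19 lower (0.18%), with no member even at an unadjusted p under 0.05, where 12% of all genes were. For day 14 minus day 7 no gene passed (0%), and 5 members had an unadjusted p under 0.05, beside 9.73% of all genes.

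Over the members, the day 14 beta-TCP array stood apart. Spearman correlations of the 55 levels between that array and the other 5 were 0.854 to 0.929, while those among the other 5 were 0.951 to 0.983. Over all 42860 probe sets the same ranges were 0.723 to 0.779 and 0.832 to 0.905, so the array stood apart for the whole transcriptome too. The beta-TCP reading of day 14 was the lowest of the 6 for 10 members, where it was for 33.8% of all genes. It was the highest for 18, where it was for 20.3%. The day 14 control reading was the highest for 33 of 55 members, beside 22% of all genes. The day 4 control reading was the lowest for 40, beside 33.3%.

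Brighter members had higher day 14 differences. Over the 48 members with a mean level of at least 6, the difference and the mean level on the 4 arrays of days 4 and 7 had a Pearson correlation of 0.66 and a Spearman correlation of 0.64, as a description across genes that share the arrays. Over the 691 other genes of that brightness these were -0.02 and -0.03. For the day 4 difference, against the level on the arrays of days 7 and 14, the members' Spearman correlation was -0.55. The day 14 relation depends on several settings. With the mean over the probe sets of a gene the Spearman correlation was -0.10, after quantile normalization it was 0.29, and without the members that reached 25% of an array's highest value, which leaves 12, it was -0.32.

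**Figure D4:**
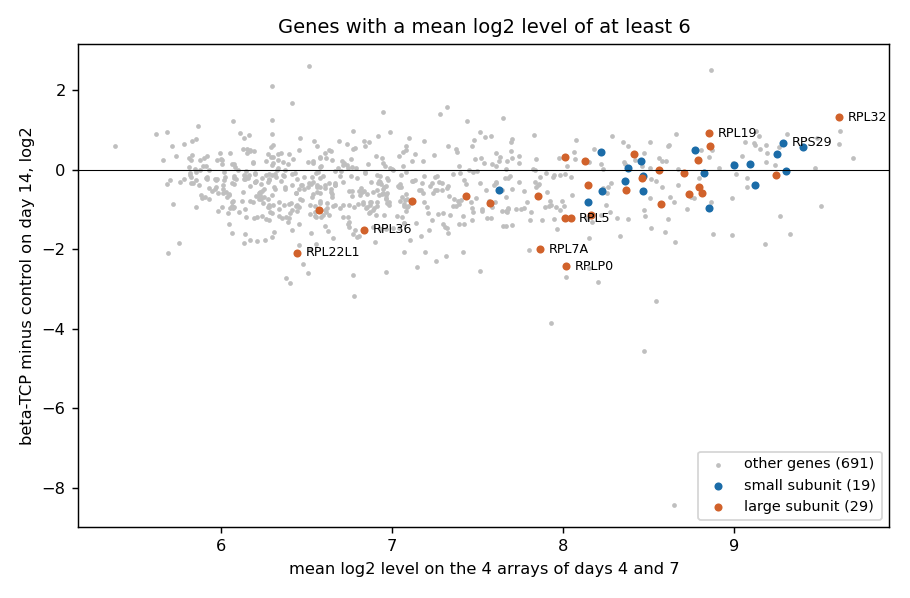
Beta-TCP minus control on day 14 in log2 against the mean log2 level on the 4 arrays of days 4 and 7, for genes with a mean level of at least 6: 19 small subunit and 29 large subunit genes over 691 other genes in grey. The ribosomal protein genes run from RPL22L1 at the lower left to RPL32 at the upper right, and the grey cloud has no slope.

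Several members are read by more than 1 probe set, and these did not always give the same difference. For the 26 genes with at least 2 probe sets above the filter, the range between the probe sets of a gene had a median of 0.41 on day 4, 0.38 on day 7 and 0.87 on day 14. Probe sets of the same gene differed in sign for 7, 13 and 13 of the 26 genes. That range is as large as the median difference itself on day 4 and larger on days 7 and 14. The same was not computed over all genes with several probe sets, so whether members differ from other genes in this was not tested.

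The widest on day 14 was RPS20, whose 6 probe sets ran from -2.05 to 0.39, with the brightest at the upper end. RPS26 followed (-1.71 to 0.58 over 3 probe sets) and then RPS29 (-1.24 to 0.68 over 5). In these 3 genes the brightest probe set alone gave the positive value, apart from 1 other probe set of RPS20 at 0.20. RPL17 was below 0 on all 3 of its probe sets, from -2.39 to -0.58. On day 4 the widest were RPL24 (0.17 to 1.65), whose second probe set lies close to the filter, RPL6 (-0.59 to 0.58 over 10 probe sets) and RPS29 (-0.36 to 0.42). On day 7 they were RPL34 (-1.18 to 0.02), RPL6 (-0.30 to 0.82) and RPL7L1 (-0.66 to 0.19). RPL24 read 8.13 on the control and 8.30 on the beta-TCP array of day 4, 8.65 and 8.56 on day 7, and 9.23 and 9.63 on day 14 by its brightest probe set. RPL34 read 8.28 and 8.50, then 8.72 and 8.74, then 9.29 and 9.29, and RPL6 read 8.32 and 8.78, then 9.07 and 8.99, then 9.68 and 9.92. Of the 9 genes at least 2-fold lower on day 14, 7 have a single probe set, and for these the range between probe sets cannot be seen. Most members, 43 of 55, are read by a probe set whose suffix (s_at or x_at) marks probes shared with other transcripts, so signal of pseudogenes or related copies can enter them.

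**Figure D5:**
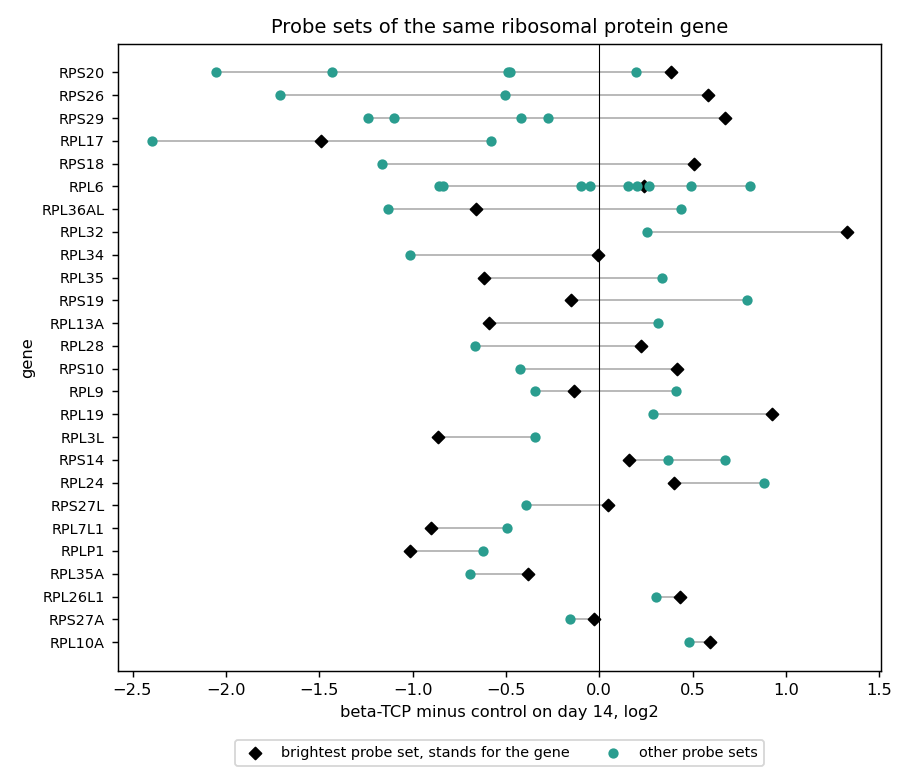
Beta-TCP minus control on day 14 in log2 for every probe set above the filter of the 26 genes with several, 1 row a gene, with the brightest probe set as a black diamond and the others as green circles. In RPS20, RPS26 and RPS29 the diamond is at or near the right end of a line that crosses 0.

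Other parts of the protein synthesis machinery had medians above 0 on day 4 and below 0 on day 14, and so did proteasome and mitochondrial genes. The medians of all genes, 0.17 on day 4 and -0.23 on day 14, have the same signs. The list of elongation factor genes had medians of 0.79, 0.13 and -1.01 on days 4, 7 and 14 over 6 genes. EEF1A1, which brings aminoacyl-tRNA to the ribosome, read 7.35 on the control and 8.14 on the beta-TCP array of day 4, 7.47 and 8.24 on day 7, and 7.63 and 5.60 on day 14. EEF2, which moves the ribosome along the mRNA, read 4.75 and 5.66, then 6.0 and 6.26, then 5.52 and 3.52. Both had their lowest reading of the 6 arrays on day 14 with beta-TCP, as RPLP0 had. The other genes of this list were EEF1B2, EEF1D, EEF1E1 and EEF1G, of which EEF1B2 alone was above 0 on day 14 (0.62).

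Initiation factors had medians of 0.45, -0.08 and -0.40 (34 genes), ribosome biogenesis factors 0.45, -0.23 and -0.38 (53 genes) and RNA polymerase I genes 0.34, -0.13 and -0.13 (12 genes). The 17 genes known for a pyrimidine tract at the start of their mRNA had 0.56, 0.03 and -0.43, and this list shares genes with the elongation and initiation lists. FAU and RACK1, which are ribosomal proteins outside the symbol rule and also in that list, had day 14 differences of 0.15 and -0.43. Mitochondrial ribosomal proteins had 0.58, -0.08 and -0.41 (72 genes). Proteasome subunits had 0.50, -0.29 and -0.73 (32 genes), and subunits of respiratory complex I had 0.75, -0.21 and -0.17 (34 genes). The cytosolic ribosomal protein medians of 0.39, -0.02 and -0.38 lie within the range of these lists on days 4 and 14. RNA polymerase I and complex I genes lay above the all-gene median on day 14.

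In limma's day 14 minus day 4 contrast, few genes of these lists passed. The background over the 10530 genes is 1.89% upward and 3.03% downward. With a pseudocount of 16 no gene at all passed this contrast, so each call named here is lost under it. Of the biogenesis factors 1 of 53 was lower, RRP1B (-2.12, adjusted p = 0.0119). Of the mTOR and S6 kinase pathway 1 of 16 was higher, PDCD4 (1.88, adjusted p = 0.0245), an inhibitor of initiation that S6 kinase marks for degradation, and 1 was lower, RRAGD (-1.67, adjusted p = 0.0286). The integrated stress response had 1 of 9 lower, DDIT3 (-3.84, adjusted p = 0.00289), and the MDM2 and p53 pathway 1 of 7 lower, FAS (-2.54, adjusted p = 0.00721). None of the 6 elongation factors, 34 initiation factors, 17 pyrimidine tract genes and 12 RNA polymerase I genes passed. Of the 72 mitochondrial ribosomal protein genes MRPL27 was higher (1.49, limma adjusted p = 0.0474). Of the 34 complex I subunits NDUFA3 (1.62), NDUFB10 (1.88) and NDUFS3 (1.72) were higher. Of the 32 proteasome subunits PSMA1 was lower (-2.64, limma adjusted p = 0.0353).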

How the data were processed

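Total RNA (100 ng) from 6 tissue cylinders was labelled for an Affymetrix canine array, per the labels' protocols. The deposited table holds 42860 probe sets. The arrays of days 4 and 7 were deposited as a ratio to the array median, with medians of 1.00 and a lowest value of 0.01. The day 14 arrays were deposited as an intensity not divided in that way, with medians of 12.0 (control) and 6.2 (beta-TCP). Both units were inferred from the numbers themselves, and the software used is not given in the sources used here.

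None of the deposited values is on a log2 scale. Here each array was divided by its own median and put on the scale log2(value + 1), which understates differences of low genes. The platform annotation names 1 gene for 29254 probe sets, several for 439 and none for 13167. Left out were 90 pairs (180 probe sets) whose names differ only in _a_at and _at. A gene was read from its probe set of highest mean, and genes at or above the 40th percentile of probe set means were kept. Day-specific differences are 1 array against 1 array. The additive fit used limma 3.58.1 in R 4.3.3, two-sided, with Benjamini-Hochberg adjustment over 10530 genes at 0.05, and was tested on simulated data. Its residual mixes animals, specimens, arrays and changes of the treatment effect between days.

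The members, lists and settings were chosen with earlier results of these data known. Values on all 6 arrays are given for members with a listed role, the 5 highest and 5 lowest differences of a day, the 5 smallest p of the fit and the 3 widest probe set ranges; other genes shown by array were chosen after their values were seen. The alternatives changed the pseudocount, scaling, filter, choice of probe sets, arrays entering the fit and prior variance.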

Additional observations from a re-analysis of the deposited data

Results flagged for a closer look

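With arrays divided by their median, the beta-TCP minus control difference was above 0 on day 4 and below 0 on day 14 for these results. For the median of the 55 ribosomal protein genes, the day 14 value minus the day 4 value was -0.78 on the log2 scale. The median of all genes also stood at 0.17 on day 4 and -0.23 on day 14. With arrays scaled on their 90th percentile the members' median was above 0 on both days (0.13 and 0.051). The same change was -3.27 for RPLP0, -2.74 for RPL7A, -2.35 for RPL36, -1.81 for RPL5 and -1.80 for RPL4. These 5 are the members at least 2-fold apart on 1 day and at least 0.5 the other way on another. The share of all genes that meets this rule was not counted. On day 14, 15.4% of all genes were at least 2-fold lower. Above 0 on day 4 and below 0 on day 14 were 41.6% of all genes and 35 of the 55 members. With 1 array per group the difference between days was not tested.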

How the results depend on the processing

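Of 260 values of the main results under 16 other settings and 1 more chosen after seeing the data, 223 kept their value or count. Another 36 moved, and 1, the members' day 14 median with 90th percentile scaling, was reversed. A median counted as kept when it moved by less than 0.28, the residual SD of the members' median level, and a count when it stayed within 1.5 times. It counted as reversed when its sign changed and its main value lay more than 0.28 from 0. A median closer to 0 than that could not count as reversed. After quantile normalization the beta-TCP medians from day 7 to day 14 (0.17 to -0.15) and from day 4 to day 14 (0.25 to -0.085) changed sign but counted as moved. The SD comes from an additive fit to the same array medians, so changes of the treatment difference between days widen it. The 223 include counts that were 0 in the main setting and stayed 0. The median of all genes on day 14 was -0.23, and it was 0.00 after quantile normalization, 0.10 with 90th percentile scaling and -0.76 with the values as deposited. The members' day 7 median, -0.02, was 0.21 after quantile normalization, which counted as kept although its sign changed. The cause of these changes was not tested.

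On day 14 the median of beta-TCP minus control was 0.051 with 90th percentile scaling, -1.15 with the values as deposited and -0.82 without the genes that reached 25% of an array's highest value (the alternative chosen after seeing the data, which leaves 12 genes). Members at least 2-fold higher on day 14 numbered 5 with 90th percentile scaling. They numbered 0 with quantile normalization, the deposited values, the mean of the probe sets, CfaAffx probe sets only, and without the brightest genes. At least 2-fold lower were 5 with quantile normalization, 90th percentile scaling, Cfa probe sets only or CfaAffx probe sets only, 34 with the deposited values, and 4 without the brightest genes. On day 4, 1 member was at least 2-fold lower with a pseudocount of 0.25. The share of all genes at 2-fold was not counted under these settings, so the counts do not set the members apart from other genes. With the deposited values the median of all genes was itself -0.76. Members tested numbered as few as 23 under the planned settings. The 9 lowest members of day 14 were below 0 in 104 of 104 values under alternatives, and the 5 highest above 0 in 47 of 57. Both sets were picked by their day 14 values and the alternatives reuse the same arrays, so these counts are not independent checks. RPL19 was at -0.028 and RPL10A at -0.36 with the deposited values. RPS29 was at 0 with quantile normalization, -0.28 with the deposited values, -0.50 with the mean of the probe sets and -0.27 with Cfa probe sets only. RPS26 was at -0.077, -0.37, -0.54 and -0.50 in the same order. The Spearman correlation of day 14 difference and level was -0.10 with the mean of the probe sets and -0.32 without the brightest genes.

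Between days, the control median from day 4 to day 7 was 0.087 with 90th percentile scaling. From day 7 to day 14 it was 4.01 with the deposited values, where the change of scale enters. From day 4 to day 14 it was 0.52 (quantile), 0.62 (90th percentile), 4.52 (deposited) and 0.43 (without the brightest genes). For beta-TCP the same 4 settings gave -0.15, 0.57, 2.63 and -0.20 from day 7 to day 14, and -0.085, 0.53, 2.70 and -0.10 from day 4 to day 14. Relative to all genes, the last was -0.17 with quantile normalization and -0.0076 without the brightest genes.

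In limma's average beta-TCP effect, no member passed under any alternative. Over all genes 6 passed with Cfa probe sets only, 17 without the day 4 pair of arrays, 29 without the day 7 pair and 220 without the day 14 pair. Over days, the F test passed 0 to 4050 genes, and 45 members with the deposited values. Day 14 minus day 4 passed 0 to 5529 genes, with 48 members for the deposited values and 1 for Cfa probe sets only. The additive fit itself compares treatments within days. Beyond this pairing by day, no paired analysis was possible because the labels give no replicate numbers. With 1 array per group, array noise and treatment cannot be told apart on any day, and members near the filter, such as RPL3L, are close to background.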

Other observations

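Ribosomal protein genes often serve as references in quantitative PCR of dog tissue, and their range over the 6 arrays varied widely between members. It was 0.73 for RPS10, 0.79 for RPS13 and 0.84 for RPL23, and 2.43 for RPLP0, 2.37 for RPL7L1 and 2.29 for RPL36. RPS10 and RPL7L1 have mean levels under 6. For RPS10 the day 14 difference was 0.42 on the probe set used and -0.43 on its other probe set. The median range over the 55 members was 1.20, and that over all genes was 1.17. Without the day 14 beta-TCP array the medians were 1.05 and 0.94. RPS13 read 8.48 on the control and 8.82 on the beta-TCP array of day 4, 8.99 and 9.02 on day 7, and 9.26 and 9.19 on day 14.

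Genes of other common reference lists also differed on day 14. The 11 measured had medians of 0.03, -0.17 and -0.68 on days 4, 7 and 14, with HPRT1 at -2.07 and YWHAZ at -1.51 on day 14. B2M read 9.87 on the control and 8.96 on the beta-TCP array of that day.

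CDKN1A, the p53 target that halts the cell cycle, read 8.23 on the control and 6.16 on the beta-TCP array of day 4, 6.83 and 5.53 on day 7, and 5.87 and 5.91 on day 14. MDM2, the p53 ligase that free ribosomal proteins can bind, had differences of 0.05, -0.29 and -0.55 on the 3 days.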
